A study of Mus musculus with 20 samples.

Results

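The 8 genes Mbp, Pmp22, Prx, Mag, Cnp, S100b, Sox10 and Ngfr, which are expressed in Schwann cells and encode parts of peripheral myelin or regulators of the cells that make it, were followed in plantaris muscle of old mice. They were chosen by name, and 8 of the 22660 gene rows in the deposited count table carry these names. RNA had been sequenced from 20 male C57BL/6J mice, with 5 different mice in each of 4 groups and an age of 2 years in the labels. Mechanical overload (MOV) of the plantaris was produced by synergist ablation in both hind limbs, in which part of the soleus and gastrocnemius is removed and the plantaris carries their load with its nerve and vessels spared; in sham surgery only the skin is opened. Mice of either surgery received by gavage vehicle or D+Q, the senolytic pair of dasatinib (5 mg/kg), a tyrosine kinase inhibitor, and quercetin (50 mg/kg), a plant flavonoid. Gavage was on days 7 and 10 after surgery and muscle was taken on day 14. The groups are called vehicle sham, vehicle MOV, D+Q sham and D+Q MOV, and the mice carry the numbers 1 to 5 of their labels.

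Schwann cells ensheath the axons of peripheral nerves. Those on large axons wrap them in myelin, a compacted stack of membrane held together by a few abundant proteins, whereas those on small axons and at the neuromuscular junction do not, and in muscle both kinds lie in the intramuscular nerve branches. When an axon is lost or injured, Schwann cells are known to lower their myelin genes and to take on a repair state with genes of their immature stage, among them the low-affinity neurotrophin receptor encoded by Ngfr. Of the 8 genes, Sox10 encodes the transcription factor of the Schwann lineage and S100b a calcium-binding protein widely used to stain these cells. Pmp22 and Mbp encode proteins of compact myelin, Cnp an enzyme of its cytoplasmic channels, Prx the scaffold protein periaxin of the outer Schwann cell membrane, and Mag an adhesion protein of the membrane that faces the axon. Several of them are also expressed outside Schwann cells, Pmp22 in fibroblasts and endothelium and Mbp, through the longer Golli transcripts of its locus, in lymphocytes.

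The total count per mouse ranged from 17887532 to 26234518 with a median of 19831442. Levels are given as CPM, a gene's counts per 1000000 of the library total after that total is scaled with edgeR's TMM factor. Overload changed the make-up of the libraries: the 10 largest genes took 23.3% to 24.2% of the counts in sham mice and 16.0% to 18.9% in MOV mice. Vehicle MOV mice 2 and 4 stood apart from the rest. They held 9.92% and 10.0% of all squared deviations from the group means over 10283 genes, against 3.03% to 6.46% in the other 18 mice, and lay at opposite ends of the first component of these deviations. Comparisons between groups that rest on them are therefore also given without both mice, a choice made after the data had been seen. Correlations between mice are not given without them, except over the sham mice alone.

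The labels name whole plantaris muscle, and muscle fibre markers dominated every library. The summed level of 8 fibre genes was 143029 ± 6968 CPM (SD, n = 5) in vehicle sham mice, with Myh4, a fast myosin heavy chain, as the most abundant. The summed level of 4 Schwann cell markers, 2 of them members (Sox10 and S100b), was 9.13 ± 1.69 CPM (SD, n = 5) in the same mice. It was 10.6 ± 1.38 CPM in vehicle MOV, 9.55 ± 1.60 CPM in D+Q sham and 11.0 ± 3.44 CPM in D+Q MOV mice (SD, n = 5 each), led by Erbb3, the neuregulin receptor of Schwann cells. Mog, which marks oligodendrocytes, the myelin-forming cells of the central nervous system, had at most 3 counts in any mouse, and the other 3 oligodendrocyte markers have no row in the table used here. In bulk muscle, fewer Schwann cells and less RNA per Schwann cell cannot be told apart, and this holds for every level given here.

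The members differ widely in level. Per kilobase of the union of exons, so that genes can be compared, the order in vehicle sham mice was Pmp22 at 4.35 ± 0.893 CPM per kb (SD, n = 5), Cnp at 2.07 ± 0.368, Mbp at 0.921 ± 0.287, Prx at 0.483 ± 0.205, S100b at 0.337 ± 0.0958, Sox10 at 0.104 ± 0.0912, Ngfr at 0.0847 ± 0.0404 and Mag at 0.0595 ± 0.0338. The first 3 did not overlap with their neighbours between mice in either sham group, whereas from Prx downwards each gene overlapped with the next. In both MOV groups Pmp22 and Cnp still stood clear of their neighbours, with Pmp22 at 9.61 ± 2.77 CPM per kb in vehicle MOV and 11.2 ± 0.967 in D+Q MOV mice (SD, n = 5 each), while Mbp overlapped with Prx. Ngfr was below Sox10 in vehicle sham mice and above it in the other 3 groups, within the spread of the mice each time. Mag, with 0 to 14 counts per mouse, was the lowest in all 4 groups. With the longest transcript in place of the union of exons, Pmp22 was at 6.27 ± 1.29, Cnp at 2.89 ± 0.513, Mbp at 1.49 ± 0.465 and Mag at 0.102 ± 0.0582 CPM per kb in vehicle sham mice (SD, n = 5), which put Mag above Ngfr at 0.0848 ± 0.0405. Under it Ngfr was also below Sox10 in D+Q sham mice, and Mbp no longer overlapped with Prx in D+Q MOV mice.

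In the GENCODE annotation of GRCm39 all 8 are protein-coding. Pmp22, Ngfr and Cnp lie on chromosome 11, at 63019718 to 63050600, 95459638 to 95478561 and 100465730 to 100482936, and Prx and Mag on chromosome 7, at 27196813 to 27219639 and 30598464 to 30614474. S100b is on chromosome 10 at 76085090 to 76097159, Sox10 on chromosome 15 at 79039108 to 79049469 and Mbp on chromosome 18 at 82493207 to 82603763. The exons of Mbp cover 9745 bases, including those of the Golli transcripts, and counts per gene do not separate these from the myelin forms. Whether reads were counted by strand is not given in the sources used here, so genes that overlap on the opposite strand make some counts uncertain. The exons of Cnp share 670 bases with Dnajc7, which encodes a co-chaperone, those of Mbp 554 bases with the non-coding Gm58827, which has no row in the table used here, those of Mag 383 bases with the non-coding Gm44662, and those of Prx 321 bases with the non-coding Gm15541.

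Overload was compared with sham surgery within each treatment, which asks how Schwann cell and myelin genes stood after 14 days of load; these comparisons share no mice. Pmp22 and Ngfr were called higher in both treatments and Cnp with D+Q. Sox10 was also called higher in both, but the call rested on single mice: with 1 mouse left out it held in 1 of 5 fits that could test it with vehicle and in 4 of 10 with D+Q, and with no count minimum it ended in both. Mbp was called lower with D+Q, a direction that was lost when libraries were scaled by total counts only. Of the myelin genes, Pmp22 was at a higher level in every MOV mouse than in any sham mouse of the same treatment, whereas for Mbp and Prx no rise was called in either and Mag was not tested; differences between genes were not tested. Of the 8 members, 7 had enough counts to be tested in each comparison, Mag being the exception. With vehicle 3 of these 7 were called by edgeR's quasi-likelihood test (Benjamini-Hochberg adjusted p under 0.05), 3 higher and 0 lower, against 60.5% of all 14601 genes tested (30.7% higher and 29.8% lower). With D+Q 5 of 7 were called, 4 higher and 1 lower, against 65.3% of 14913 genes (34.4% higher and 30.9% lower). With no count minimum, 2 of 8 members were called with vehicle, against 41.9% of all 22639 genes, and 4 of 8 with D+Q, against 46.4% of 22568. Overload moved a large part of all genes, and nothing particular to the members is read from these counts. Sox10 and Ngfr also reached the test largely through MOV mice: the minimum of 10 counts was met by 1 vehicle sham mouse for each, against 4 and 5 vehicle MOV mice. Without vehicle MOV mice 2 and 4, 5 members were tested with vehicle and 1, Pmp22, was called by edgeR, against 7649 of all 13820 genes. With no count minimum as well, a combination also chosen after the data had been seen, 8 members were tested. Of these 2, Pmp22 and Ngfr, were called, against 8790 of all 22559 genes.

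**Figure D1:**
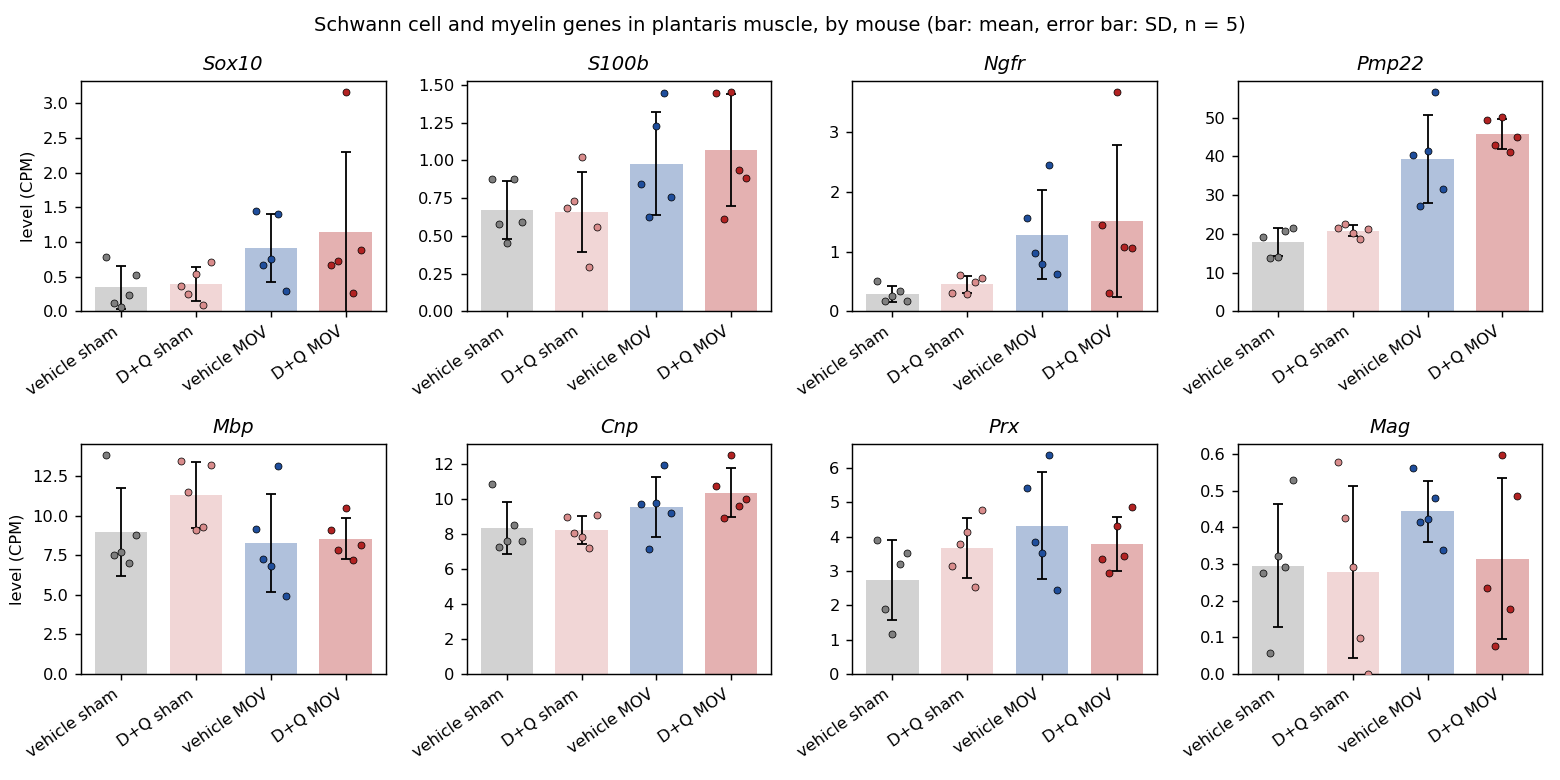
Level of each of the 8 genes by mouse, in CPM on a linear axis from 0, for the 4 groups. Points are mice, bars are means and error bars are the SD over 5 mice; Pmp22 is higher in every MOV mouse than in every sham mouse, and 1 D+Q MOV mouse is far above the rest for Sox10 and Ngfr.

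Pmp22 was the member with the highest level and the clearest difference. It was at 19.2, 13.8, 14.0, 20.7 and 21.4 CPM in vehicle sham mice 1 to 5 and at 40.3, 27.1, 41.5, 56.6 and 31.5 CPM in vehicle MOV mice 1 to 5. The lowest MOV mouse, 2, lay above the highest sham mouse, 5, and MOV mouse 4 was the highest of all 20. The log2 fold change was 1.16 (standard error, SE, of 0.206, edgeR adjusted p = 0.000553), and it was 1.15 without vehicle MOV mice 2 and 4 (adjusted p = 7.24e-05 from edgeR). With D+Q the levels were 21.5, 22.6, 20.3, 18.7 and 21.2 CPM in sham mice and 49.4, 43.0, 50.3, 41.2 and 45.0 CPM in MOV mice. Here too the groups did not overlap, and the mice of each group lay close together, with an SD of 3.97 CPM among the 5 D+Q MOV mice against 11.4 CPM among the 5 vehicle MOV mice. The estimated log2 fold change was 1.18 (SE 0.0723, edgeR adjusted p = 2.96e-10).

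Ngfr, the neurotrophin receptor that immature and repair Schwann cells carry, was low in sham muscle. Vehicle sham mice 1 to 5 had 0.506, 0.173, 0.258, 0.349 and 0.177 CPM, or 3 to 11 counts, and vehicle MOV mice 1 to 5 had 1.57, 0.985, 0.800, 2.45 and 0.633 CPM, or 15 to 56 counts. Every vehicle MOV mouse lay above every vehicle sham mouse, and mouse 4 was again the highest. On the log2 scale the difference was 2.10 (SE 0.457, edgeR adjusted p = 0.00101); without vehicle MOV mice 2 and 4 the gene fell below the count minimum, and with no minimum it was 1.77 without them (adjusted p = 0.00652 from edgeR). With D+Q, sham mice had 0.315, 0.609, 0.293, 0.486 and 0.560 CPM and MOV mice 1.45, 0.306, 3.67, 1.07 and 1.06 CPM. MOV mouse 3 was far above the others of its group and MOV mouse 2 lay inside the sham range, so the groups overlapped. The log2 fold change was 1.78 (SE 0.536, edgeR adjusted p = 0.00896). Without D+Q MOV mouse 3 it was 1.15 (adjusted p = 0.0280 from edgeR), and with limma-voom and sample quality weights it was 1.26 and no longer passed (adjusted p = 0.0750).

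Sox10 marks the Schwann lineage itself, and its counts were few. Vehicle sham mice had 0.782, 0.115, 0.0644, 0.233 and 0.530 CPM and vehicle MOV mice 1.44, 0.674, 0.753, 1.40 and 0.295 CPM. MOV mice 1 and 4 lay above all sham mice, while mice 2, 3 and 5 lay within the sham range. The log2 fold change of 1.35 (SE 0.561, edgeR adjusted p = 0.0494) passed narrowly. The call ended without vehicle sham mouse 2, 3, 4 or 5 (adjusted p = 0.107, 0.101, 0.0997 and 0.0530 from edgeR), and the gene was not tested without vehicle sham mouse 1 or vehicle MOV mouse 1, 2, 3 or 4, since it then missed the count minimum. With no minimum, the log2 fold change was 1.15 without vehicle MOV mouse 4 (adjusted p = 0.117 from edgeR) and 1.25 without mice 2 and 4 (0.120). The call also ended with all 20 mice in one fit (adjusted p = 0.0789 from edgeR) and with no count minimum (0.0518), and held without vehicle MOV mouse 5 (log2 fold change 1.60, adjusted p = 0.0188 from edgeR).

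In D+Q mice Sox10 was at 0.367, 0.243, 0.536, 0.0971 and 0.713 CPM after sham surgery and at 0.665, 0.726, 3.16, 0.268 and 0.885 CPM after MOV. MOV mouse 3 stood far above all others of the 20, and mice 1 and 4 lay within the sham range. Between the groups the log2 fold change was 1.57 (SE 0.637, edgeR adjusted p = 0.0445). Without D+Q MOV mouse 3 it was 0.74 (adjusted p = 0.199 from edgeR), and the call also ended without D+Q MOV mouse 5 (adjusted p = 0.0576) or D+Q sham mouse 1, 2, 3 or 4 (0.0863, 0.0942, 0.0620 and 0.0983) and with no count minimum (0.0646). With limma-voom it was 1.01 and did not pass (adjusted p = 0.154).

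S100b, the calcium-binding marker, was low throughout, with 6 to 37 counts per mouse. It was at 0.874, 0.575, 0.451, 0.873 and 0.589 CPM in vehicle sham and 0.843, 0.622, 1.22, 1.44 and 0.760 CPM in vehicle MOV mice. MOV mice 3 and 4 lay above all sham mice and the other 3 within their range. The estimated log2 fold change was 0.54 (SE 0.333, edgeR adjusted p = 0.175). With D+Q the levels were 0.682, 0.730, 1.02, 0.291 and 0.560 CPM after sham surgery and 1.45, 0.611, 1.45, 0.937 and 0.885 CPM after MOV. MOV mice 1 and 3 stood above all sham mice, and the groups overlapped in the rest. The log2 fold change was 0.74 and did not pass (SE 0.354, edgeR adjusted p = 0.0746), though it did without D+Q MOV mouse 2 or D+Q sham mouse 3 and with total counts only (adjusted p = 0.0335, 0.0325 and 0.0120 from edgeR).

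Mbp, which encodes the protein that brings the inner faces of the myelin membrane together, had no called rise. Vehicle sham mice had 13.8, 7.54, 7.73, 6.99 and 8.77 CPM and vehicle MOV mice 9.15, 7.26, 6.83, 13.1 and 4.94 CPM. Sham mouse 1 and MOV mouse 4 were far above the other mice of their groups, MOV mice 3 and 5 lay below all sham mice, and the groups overlapped. For MOV against sham the log2 fold change was -0.11 (SE 0.261, edgeR adjusted p = 0.730), and its sign turned when vehicle sham mouse 1 (0.10) or vehicle MOV mouse 5 (0.046) was left out and when libraries were scaled by total counts only (0.29). In D+Q mice the levels were 13.4, 11.5, 9.07, 9.27 and 13.2 CPM after sham surgery and 9.07, 7.83, 10.5, 7.23 and 8.14 CPM after MOV. The highest MOV mouse, 3, lay inside the sham range and the other 4 lay below every sham mouse, mouse 1 only just. Mbp fell by 0.35 on the log2 scale (SE 0.133, edgeR adjusted p = 0.0282), but with total counts only the value was 0.018.

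The call of Mbp in D+Q mice depended on single mice and on the scaling. It ended without D+Q MOV mouse 2, 4 or 5 (adjusted p = 0.0782, 0.0891 and 0.0641 from edgeR) or without D+Q sham mouse 1 or 5 (0.0843 and 0.0794), with all 20 mice in one fit (0.115) or with a count minimum of 50 (0.0526). Scaling by total counts only moved the median log2 fold change of all genes in MOV against sham mice to 0.36 with vehicle and 0.39 with D+Q, from -0.015 and 0.023 with TMM, so that values under it are to be read against that shift. Under it 7671 of 9128 called genes were higher with vehicle, against 4482 of 8831 with TMM, and 8378 of 10036 with D+Q, against 5129 of 9743. Prx, S100b and Cnp, not called with TMM in vehicle mice, then reached log2 fold changes of 1.05, 0.93 and 0.59 (adjusted p = 0.0152, 0.0298 and 0.00625 from edgeR).

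Cnp, whose enzyme lies in the uncompacted parts of myelin, varied less between mice than most of the others. It was at 10.9, 7.25, 7.60, 8.56 and 7.59 CPM in vehicle sham and 9.71, 7.16, 9.79, 11.9 and 9.24 CPM in vehicle MOV mice. Sham mouse 1 was higher than all MOV mice but mouse 4, the groups overlapped, and the log2 fold change was 0.20 (SE 0.148, edgeR adjusted p = 0.253). With D+Q the levels were 8.97, 8.10, 7.85, 7.23 and 9.11 CPM after sham surgery and 10.8, 8.94, 12.6, 9.59 and 10.0 CPM after MOV. MOV mice 1, 3, 4 and 5 lay above every sham mouse and MOV mouse 2 inside their range. Cnp rose by a log2 fold change of 0.38 (SE 0.112, edgeR adjusted p = 0.00643), which passed with each mouse left out in turn.

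Of the members called higher in D+Q mice, Pmp22, Ngfr and Cnp lie on the same chromosome, and the sequence before their start sites is shown. They were picked after the calls had been seen. Sox10, also called higher, lies on chromosome 15 and has no window in the promoter table used here. Each line gives bases 250 to 101 before an annotated start, from the RefSeq promoter table of GRCm38.p6, at chr11:63128732-63128881 on the plus strand (Pmp22), chr11:95587799-95587948 on the minus strand (Ngfr) and chr11:100574689-100574838 on the plus strand (Cnp). Capitals mark the letters ACAAAG, 1 of 2 forms of the SOX motif that were searched.
Pmp22: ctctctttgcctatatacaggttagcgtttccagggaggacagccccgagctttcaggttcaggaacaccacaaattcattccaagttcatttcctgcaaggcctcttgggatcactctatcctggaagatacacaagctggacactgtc
Ngfr: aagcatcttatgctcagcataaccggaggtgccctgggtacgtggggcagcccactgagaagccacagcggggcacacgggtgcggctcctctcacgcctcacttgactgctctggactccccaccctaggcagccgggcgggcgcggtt
Cnp: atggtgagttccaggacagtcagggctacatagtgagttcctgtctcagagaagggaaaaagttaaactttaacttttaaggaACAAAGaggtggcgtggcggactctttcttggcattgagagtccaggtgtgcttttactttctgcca
On both strands of the full windows of 300 bases, ACAAAG occurred in 18.7% of all 32851 windows in the table, and of the 11 windows of 6 members in 3, which hold 2 sites: 1 window of Cnp, and 2 windows of Mag that overlap and contain the same site. Windows of a gene are thus not independent, and the shares are not compared. The other SOX form, ACAATG (12.6% of all windows), the AP-1 motif TGACTCA (5.20%) and the EGR motif GCGNGGGCG (5.55%) occurred in 0 of the 11. The motifs do not contain one another. A match is a description of letters, not of binding, and the absence of a match says only that these letters are not in the window.

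Of the remaining myelin genes, Prx was tested and not called in either comparison, and Mag missed the count minimum and was not tested. Prx was at 3.91, 1.90, 1.16, 3.20 and 3.53 CPM in vehicle sham and 5.42, 3.84, 3.53, 6.39 and 2.45 CPM in vehicle MOV mice. MOV mice 1 and 4 lay above all sham mice and the other 3 within their range, with sham mouse 3 the lowest of all. Between the groups the log2 fold change was 0.66 (SE 0.321, edgeR adjusted p = 0.0909), and without vehicle MOV mouse 5 it was 0.83 and passed (adjusted p = 0.0351 from edgeR), as it did with all 20 mice in one fit (0.0461), with the replicate block (0.0399) and with total counts only (0.0152). In D+Q mice Prx was at 3.15, 3.77, 4.14, 2.52 and 4.79 CPM after sham surgery and 3.36, 2.94, 4.31, 3.44 and 4.87 CPM after MOV. Only MOV mouse 5 lay above all sham mice, and the rest overlapped. The log2 fold change was 0.087 (SE 0.192, edgeR adjusted p = 0.706), with the opposite sign without D+Q sham mouse 4 (-0.024) or D+Q MOV mouse 5 (-0.0088) and with limma-voom (-0.013). Mag had 6, 1, 5, 5 and 9 counts in vehicle sham and 14, 8, 9, 11 and 8 in vehicle MOV mice, and 11, 7, 6, 2 and 0 in D+Q sham and 6, 2, 14, 4 and 11 in D+Q MOV mice. D+Q MOV mouse 3 and vehicle MOV mouse 1 were the highest at 14 counts, and MOV and sham mice overlapped in both treatments. With no count minimum its log2 fold change was 0.59 (SE 0.530, edgeR adjusted p = 0.403) with vehicle and 0.22 (SE 0.674, edgeR adjusted p = 0.824) with D+Q. Counts this low leave only a large difference detectable.

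**Figure D2:**
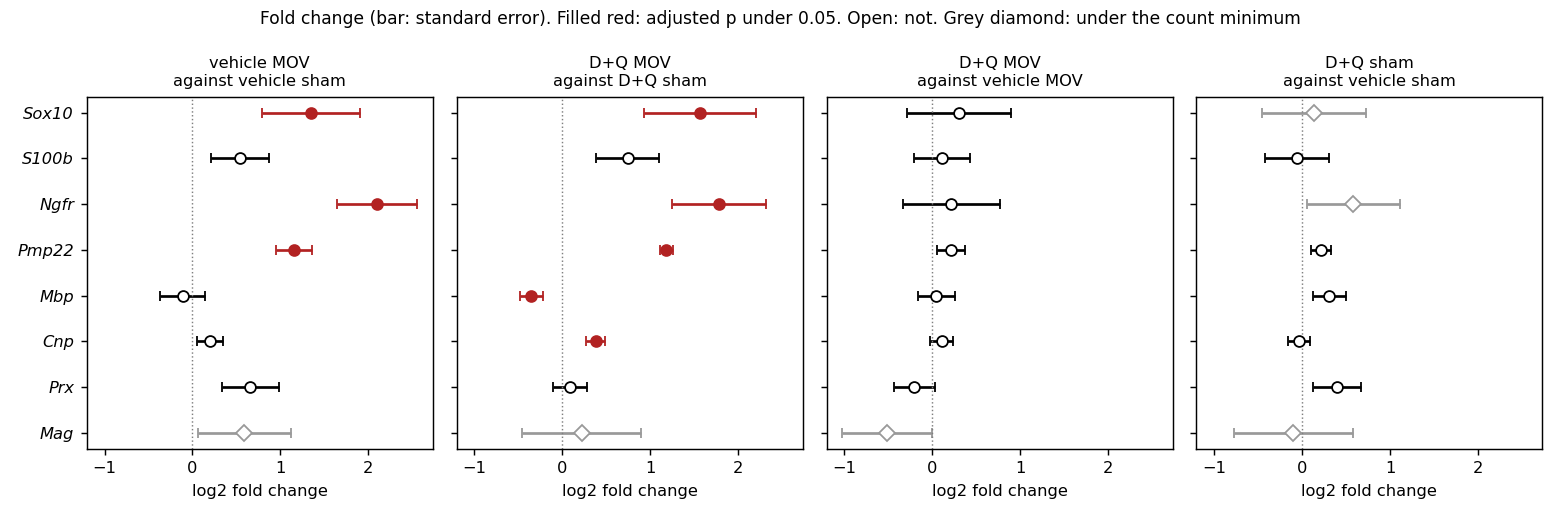
Log2 fold change of the 8 genes in the 4 comparisons between groups, with bars of 1 standard error from edgeR (5 mice against 5). Filled red points passed an adjusted p of 0.05 and open points did not; grey diamonds are genes under the count minimum, fitted without one. Pmp22, Ngfr and Sox10 are filled in both comparisons of MOV with sham, and no point is filled between D+Q and vehicle.

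Because Pmp22 and Mbp both belong to compact myelin, their counts were also compared within each library, where scaling between libraries plays no part; this pair was singled out after the values had been seen, and no test was made. There were 1.39, 1.83, 1.82, 2.97 and 2.44 Pmp22 counts per Mbp count in vehicle sham mice 1 to 5 and 1.60, 1.96, 2.24, 2.02 and 1.61 in D+Q sham mice. In vehicle MOV mice there were 4.41, 3.74, 6.08, 4.32 and 6.38 and in D+Q MOV mice 5.44, 5.49, 4.79, 5.70 and 5.53. The highest sham mouse lay below the lowest MOV mouse in either treatment. Vehicle MOV mouse 4, the highest of the MOV mice for both genes, had a ratio within the range of its group. Cnp counts per Mbp count overlapped with vehicle, at 0.787 to 1.23 in sham and 0.910 to 1.87 in MOV mice, and did not overlap with D+Q, at 0.668 to 0.866 in sham and 1.14 to 1.33 in MOV mice.

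**Figure D3:**
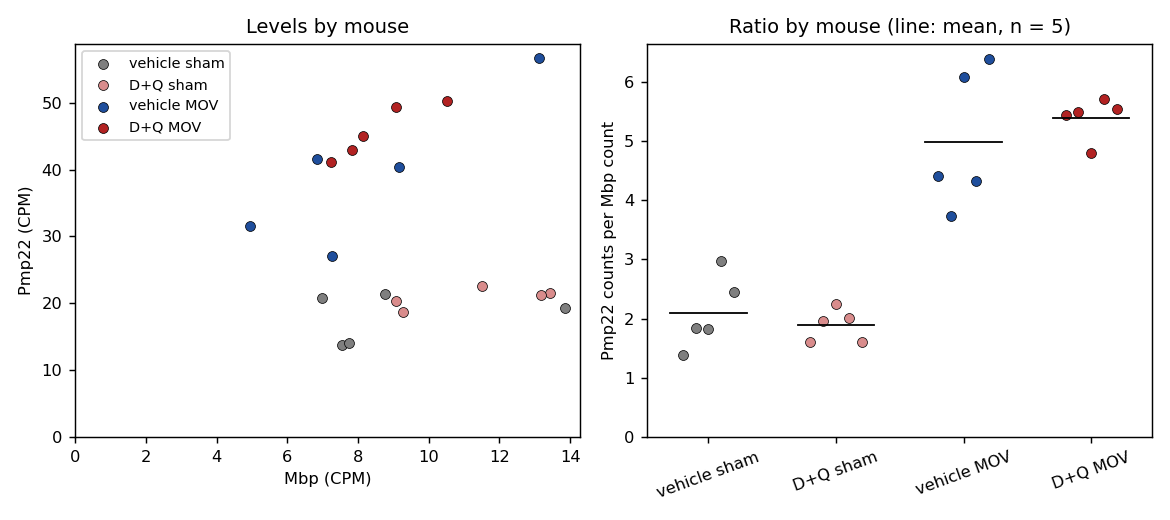
Pmp22 against Mbp by mouse in CPM (left) and Pmp22 counts per Mbp count by mouse, with a line at the mean of 5 mice (right), for the 4 groups. Mbp overlaps between sham and MOV mice, and the ratio is 1.39 to 2.97 in sham and 3.74 to 6.38 in MOV mice.

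D+Q was compared with vehicle within each surgery, which asks whether the treatment changed these genes. In overloaded muscle no member passed the test: 0 of 7 tested members were called by edgeR, against 0% of all 15238 genes, and 0 members had an unadjusted p under 0.05. DESeq2 and limma-voom also called 0 members. Over all genes there were 1340 with an unadjusted p under 0.05 in edgeR, and DESeq2 called 11 and limma-voom 0. The log2 fold changes of D+Q MOV against vehicle MOV were 0.21 for Pmp22 (SE 0.160, edgeR adjusted p = 0.708), 0.045 for Mbp (0.211, 0.957), 0.11 for Cnp (0.132, 0.814), 0.12 for S100b (0.320, 0.922) and -0.20 for Prx (0.232, 0.800), which was below 0 with each mouse left out in turn (-0.35 to -0.027). For Ngfr the value was 0.22 over all 10 mice, -0.42 without D+Q MOV mouse 3 and -0.060 with limma-voom, and for Sox10 it was 0.30 over all 10 mice and -0.53 without D+Q MOV mouse 3. Without vehicle MOV mice 2 and 4, 0 members and 7 genes in all were called by edgeR. With standard errors of 0.592 for Sox10 and 0.549 for Ngfr, only a large difference could have passed for these genes.

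In sham muscle 5 members had enough counts, and 0 of them were called in D+Q against vehicle mice by edgeR, DESeq2 or limma-voom, against 0.215% of all 13926 genes; 0 had an unadjusted p under 0.05. Over all genes 30 were called by edgeR, 1420 had an unadjusted p under 0.05, and DESeq2 called 133. The log2 fold changes were 0.40 for Prx (SE 0.272, edgeR adjusted p = 0.666), 0.31 for Mbp, 0.21 for Pmp22, -0.039 for Cnp and -0.058 for S100b. Pmp22 in D+Q sham mice 1 and 2 lay above all vehicle sham mice, and the other 3 within their range. These values share the sham and MOV mice of the comparisons of overload with sham, and are not independent of them. The question whether the response to overload differed between treatments was tested as an interaction over all 20 mice, where all 8 members met the count minimum. There 0 members were called by edgeR, DESeq2 or limma-voom and 0 had an unadjusted p under 0.05, against 0.0127% of all 15700 genes, or 2 genes. These were Tcf15, a transcription factor of endothelial and mesoderm cells, and Sgk1, a glucocorticoid-induced kinase, named after their values were seen. The members' interaction terms ran from -0.61 for Prx (SE 0.386, edgeR adjusted p = 0.889) to 0.18 for Sox10 (0.925, 0.997), which was -0.61 with limma-voom and -0.65 without D+Q MOV mouse 3. Mbp and Cnp, called with D+Q and not with vehicle, were thus not shown to differ between treatments, with terms of -0.27 (standard error 0.310) and 0.14 (standard error 0.187).

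The members varied together from mouse to mouse within groups. Taking each gene's log2 CPM as a deviation from its group mean, in units of its SD over the 20 mice, all 8 members were above the mean of their group in vehicle sham mouse 1, vehicle MOV mouse 4 and D+Q MOV mouse 3, with mean deviations of 1.17, 1.43 and 1.26. 0 of the 8 were above it in vehicle sham mouse 2, vehicle MOV mice 2 and 5 and D+Q MOV mice 2 and 4, with mean deviations of -0.926, -0.805, -1.04, -1.01 and -0.572. Vehicle MOV mice 2 and 4, on opposite sides here, are the mice that stood apart over all genes. Correlations over the 20 mice and over the 10 MOV mice include both, and were not computed without them. Over the 20 mice, the correlation of a member's deviations with the mean of the other 7 was 0.798 for Cnp, 0.778 for Pmp22, 0.770 for Sox10, 0.736 for Mbp, 0.733 for Prx, 0.694 for S100b and 0.660 for Ngfr. For Mag, whose counts are near the limit of detection, it was 0.372. The value was much lower among sham than among MOV mice for 2 members, at 0.325 over the 10 sham and 0.842 over the 10 MOV mice for Ngfr and 0.194 and 0.653 for Mag. For the other 6 it was 0.599 to 0.809 over sham and 0.750 to 0.830 over MOV mice. These are descriptions: all points of 1 mouse share its library and its scaling factor. Pmp22 and Mbp, whose ratio differed between sham and MOV mice, followed each other between mice of a group (r = 0.614 over 20 mice, 0.351 over the 10 sham and 0.785 over the 10 MOV mice).

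**Figure D4:**
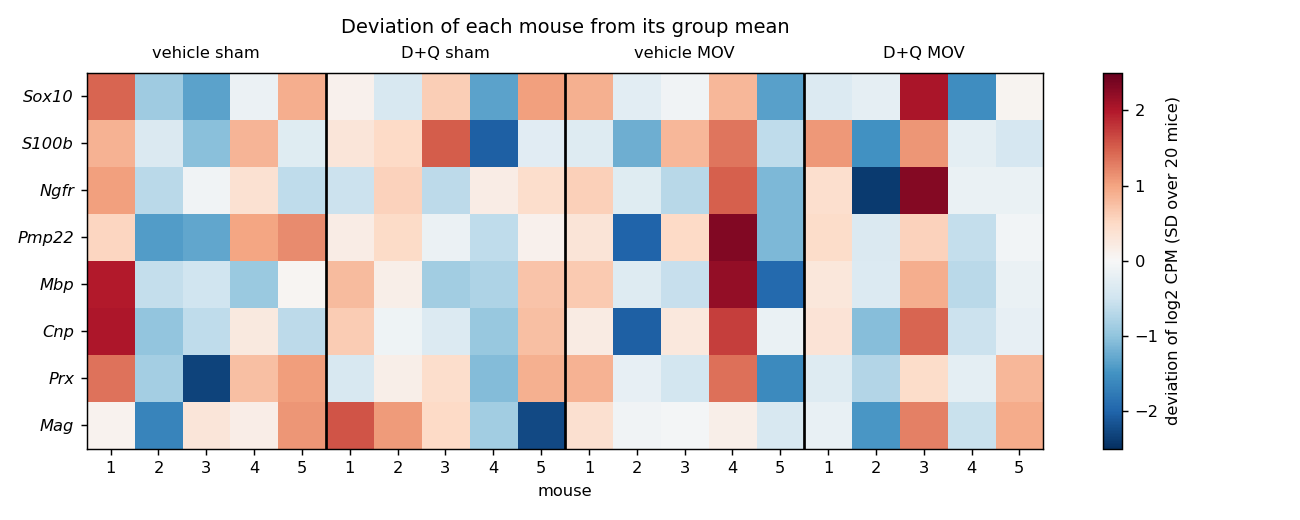
Deviation of log2 CPM from the group mean for the 8 genes (rows) in the 20 mice (columns), in units of each gene's SD over the 20 mice; red is above and blue below the mean of the group. Vehicle sham mouse 1, vehicle MOV mouse 4 and D+Q MOV mouse 3 are red for all 8 genes.

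Markers of several cell types varied with the members between mice of a group. The summed level of Erbb3 and the cadherin gene Cdh19, the 2 Schwann markers analysed here that are not members, a sum that is mostly Erbb3, followed the members' mean deviation with r = 0.679 over 20 mice. For perineurial markers r was 0.662, for endoneurial fibroblast markers 0.530, for axon markers 0.496, for general fibroblast markers 0.486 and for smooth muscle and pericyte markers 0.482, so that markers outside the nerve followed the members about as closely as those of axons. For macrophage, endothelial and adipocyte markers it was 0.294, 0.252 and 0.209, for melanocyte and satellite cell markers 0.102 and -0.175, and for muscle fibre markers -0.586, whereas the total count, the share of mitochondrial transcripts and the share of Rn18s, the 18S ribosomal RNA, gave 0.0436, 0.164 and -0.0319. The 8 fibre markers summed to 75795 and 75146 CPM in vehicle MOV mouse 4 and D+Q MOV mouse 3, the lowest of all 20. Their part in the members' values was not tested.

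Of 15692 other genes, those whose deviations were most like the members' mean deviation over the 20 mice were Qprt (an enzyme of NAD synthesis), Gpc3 (the cell-surface proteoglycan glypican 3), Klhl13 (an adaptor of a ubiquitin ligase), Hspa12a (a distant member of the heat shock protein 70 family), Wif1 (a secreted inhibitor of Wnt), Marcks (an actin-binding substrate of protein kinase C), Ctso (a cathepsin), Ccl5 (a chemokine), Arhgdib (a regulator of small GTPases in blood cells) and Hsd11b1 (which regenerates active glucocorticoid). Pearson's r ran from 0.856 for Qprt to 0.808 for Hsd11b1, and Spearman's rank correlation of the 10 from 0.656 to 0.866. Wif1 is also among the endoneurial fibroblast markers. The order rests on few mice: with Spearman's rank correlation 5 of these 10 stayed among the 10 most alike, with total counts 7, within the 10 MOV mice 1 and within the 10 sham mice 0. For single members the most alike genes were Dstn, which encodes the actin-depolymerising protein destrin, for Pmp22 (r = 0.914), Papss1, an enzyme of sulfate activation, for Cnp (0.887), and Leprotl1, a protein of receptor trafficking, for S100b (0.906). They were the integrin gene Itgb4 for Prx (r = 0.838), Ifit3b, an interferon-induced gene, for Sox10 (0.810), Gstt2, a glutathione transferase, for Ngfr (0.853), and Chrnd, a subunit of the muscle acetylcholine receptor, for Mag (0.843). For Mbp it was the predicted gene Gm42857 (r = 0.804). The ranking rests on 20 mice whose points share a library and a scaling factor, and nothing is read from the names.

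Of 21 other myelin and Schwann cell genes analysed here, 12 were tested in vehicle MOV against vehicle sham mice, of which 7 rose, 1 fell and 4 were not called. In D+Q mice 14 were tested, of which 7 rose, 1 fell and 6 were not called. Of all genes tested, 30.7% rose with vehicle and 34.4% with D+Q. Several of the list passed the minimum only because they are high in MOV mice, and the counts are a description. With no count minimum 8 of 21 rose in each treatment and 1 and 0 fell, against 5174 of 22639 genes that rose with vehicle and 5860 of 22568 with D+Q. Erbb3 was at 9.71, 7.19, 7.35, 8.09 and 6.06 CPM in vehicle sham and 8.03, 7.52, 7.96, 7.92 and 6.80 CPM in vehicle MOV mice. The groups overlapped, with sham mouse 1 the highest, and the log2 fold change was 0.0024 (SE 0.130, edgeR adjusted p = 0.989) with vehicle and 0.011 (SE 0.145, edgeR adjusted p = 0.952) with D+Q. Cdh19, the other Schwann marker that is not a member, rose by 1.33 with vehicle (SE 0.412, edgeR adjusted p = 0.0114) and 0.99 with D+Q (SE 0.379, edgeR adjusted p = 0.0289), from 3 to 13 and 6 to 16 counts in the sham groups. The vehicle call ended without vehicle MOV mice 2 and 4 (0.89, adjusted p = 0.0970 from edgeR). The D+Q call ended without D+Q MOV mouse 3 (0.66, adjusted p = 0.129 from edgeR) or D+Q sham mouse 4 (0.0716), with the replicate block (0.0630) and with limma-voom (0.0743).

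Egr2, the transcription factor of the myelinating state, was at 0.230, 0.115, 0.193, 0.466 and 0.530 CPM in vehicle sham and 1.69, 0.933, 2.87, 16.2 and 5.95 CPM in vehicle MOV mice. All MOV mice were above all sham mice, and mouse 4 was far above the rest. With D+Q it was at 0.472, 0.426, 0.439, 0.437 and 0.713 CPM after sham surgery and 4.81, 5.08, 3.76, 3.21 and 19.6 CPM after MOV, where mouse 5, not the mouse 3 that was high for Sox10 and Ngfr, was far above the rest. The log2 fold changes were 4.17 (SE 0.918, edgeR adjusted p = 0.00289; 3.29 with limma-voom) and 3.90 (SE 0.671, edgeR adjusted p = 0.000623; 3.12 without D+Q MOV mouse 5). With vehicle the gene had 2 to 9 counts in sham mice, so it was tested only because all 5 MOV mice met the count minimum, and no fit without one of them tested it. With no minimum it was 3.22 without vehicle MOV mouse 4 (adjusted p = 0.000399 from edgeR) and 3.53 without mice 2 and 4 (1.05e-06). Egr2 is also induced in macrophages, lymphocytes and fibroblasts. Gldn, a secreted organiser of nodes of Ranvier, rose by 2.79 with vehicle and 2.04 with D+Q, Lgi4, a secreted ligand for myelination, by 1.74 and 1.41, and Drp2, the dystrophin-related partner of periaxin, by 1.79 and 1.35. Adgrg6, the adhesion receptor that starts myelination, rose with D+Q (1.59) and was at 0.46 with vehicle (adjusted p = 0.220 from edgeR). Foxd3, a neural crest factor, fell by 0.67 with vehicle and fell by 0.55 with D+Q. Its call ended with total counts only (-0.30 and -0.18), with vehicle also without vehicle MOV mouse 5 or vehicle sham mouse 3 (adjusted p = 0.0518 and 0.0592 from edgeR), and with D+Q without D+Q MOV mouse 1, 2 or 4 (0.100, 0.0809 and 0.0979) or D+Q sham mouse 1, 2, 4 or 5 (0.104, 0.0582, 0.0665 and 0.0577), with the replicate block (0.0786) and with no count minimum (0.0506).

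Genes of the repair and immature Schwann cell state, the state that Ngfr marks, made up a list of which 17 were analysed here. With vehicle 9 were tested, of which 6 rose and 1 fell (median log2 fold change 2.27 against -0.015 over all genes), and with D+Q 11, of which 8 rose and 1 fell (1.88 against 0.023); of all genes tested, 30.7% and 34.4% rose. With D+Q, Artn met the count minimum only through MOV mice and Gap43 mostly so. With vehicle the same held mostly for Clcf1, which had 2 to 10 counts in sham and 49 to 128 in MOV mice. With no count minimum 7 of 17 rose with vehicle and 8 with D+Q and 1 fell in each (medians 1.51 and 1.60, against 0.096 and 0.11 over all genes, of which 5174 of 22639 and 5860 of 22568 rose). Ncam1, a cell adhesion molecule that muscle fibres without nerve contact and satellite cells also carry, was at 3.86, 3.11, 4.51, 3.84 and 3.83 CPM in vehicle sham and 24.7, 35.5, 21.4, 24.3 and 30.7 CPM in vehicle MOV mice. No MOV mouse came near the sham range, and the log2 fold change was 2.85 (SE 0.147, edgeR adjusted p = 1.86e-09) with vehicle and 2.35 with D+Q. Clcf1, a neurotrophic cytokine, rose by 3.11 and 2.00, Atf3, a stress-induced transcription factor, by 2.65 and 1.88, and Runx2, a factor of repair Schwann cells and of connective tissue, by 2.46 and 2.54. Gap43, a protein of growing axons and non-myelinating Schwann cells, had 0 to 5 counts in vehicle sham and 9 to 37 in vehicle MOV mice and missed the count minimum there. With D+Q it was at 0.210, 0.670, 0.0975, 0.0971 and 0.102 CPM after sham surgery and 1.09, 1.41, 1.45, 0.669 and 0.973 CPM after MOV. Sham mouse 2 alone reached the lower end of the MOV range. Gap43 rose by 2.35 (SE 0.475, edgeR adjusted p = 0.000291; 3.15 without D+Q sham mouse 2), and Artn, which encodes the neurotrophic factor artemin, by 2.59 (3.40 without D+Q sham mouse 2; 2.58 with no count minimum, adjusted p = 0.000149 from edgeR). Cadm1, an adhesion molecule of Schwann cells and other tissues, fell by 1.15 with vehicle and fell by 0.95 with D+Q. Under total counts only Cadm1 was at -0.77 and -0.58.

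Jun, the transcription factor that drives the repair state, was among the more abundant genes of the list. It was at 114 ± 11.3 CPM in vehicle sham and 151 ± 37.8 CPM in vehicle MOV mice, and at 159 ± 38.7 and 151 ± 29.4 CPM in D+Q sham and D+Q MOV mice (SD, n = 5 each). It rose by 0.42 with vehicle (SE 0.155, edgeR adjusted p = 0.0341) and was at -0.027 with D+Q (adjusted p = 0.909 from edgeR). The vehicle call ended without vehicle MOV mouse 4 or 5 (adjusted p = 0.0750 and 0.0721 from edgeR), without vehicle sham mouse 1, 3, 4 or 5 (0.0779, 0.0558, 0.0560 and 0.0598), without vehicle MOV mice 2 and 4 (0.0707), with no count minimum (0.0688), with all 20 mice in one fit (0.0623) and with limma-voom (0.0642). Jun is expressed by most cells of muscle. Sox2, a factor of immature Schwann cells, met the count minimum in none of the comparisons.

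Of 16 genes of neuregulin and neurotrophin signalling, through which axons and targets act on Schwann cells and on the receptor encoded by Ngfr, 10 were tested with vehicle and 11 with D+Q. With vehicle 3 rose and 1 fell, and with D+Q 6 rose and 1 fell (median log2 fold changes 0.35 and 1.15, against -0.015 and 0.023 over all genes, of which 30.7% and 34.4% rose). Nrg2, with 0 to 8 counts in D+Q sham and 12 to 19 in D+Q MOV mice, was tested with D+Q only through the MOV mice. With no count minimum 4 of 16 rose with vehicle and 7 with D+Q (medians 0.61 and 1.17, against 0.096 and 0.11 over all genes, of which 5174 of 22639 and 5860 of 22568 rose), and 1 and 2 fell. Erbb2, the partner of Erbb3 in neuregulin signalling, rose by 1.21 and 1.15 while Erbb3 was not called. Maged1 and Bex3, which encode proteins that bind the receptor encoded by Ngfr, rose by 2.08 and 1.63 with vehicle and by 2.08 and 2.01 with D+Q, and Sort1, the co-receptor sortilin, fell by 0.65 with vehicle and fell by 0.74 with D+Q (-0.27 and -0.38 with total counts only). With D+Q Nrg2, a neuregulin, rose by 1.84 (2.52 with limma-voom) and Lingo1, a co-receptor of Nogo signalling, by 1.34. Nrg1, the neuregulin of axons, had 0.0129 ± 0.0288 CPM in vehicle sham and 0.494 ± 0.278 CPM in vehicle MOV mice (SD, n = 5 each) and was tested only between D+Q and vehicle MOV mice and in the interaction, and the same held for Bdnf, the brain-derived neurotrophic factor gene. Erbb3 and Bdnf each stand in 2 of the 3 lists. Between D+Q and vehicle mice of either surgery, and in the interaction, 0 genes of the 3 lists were called by edgeR.

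**Figure D5:**
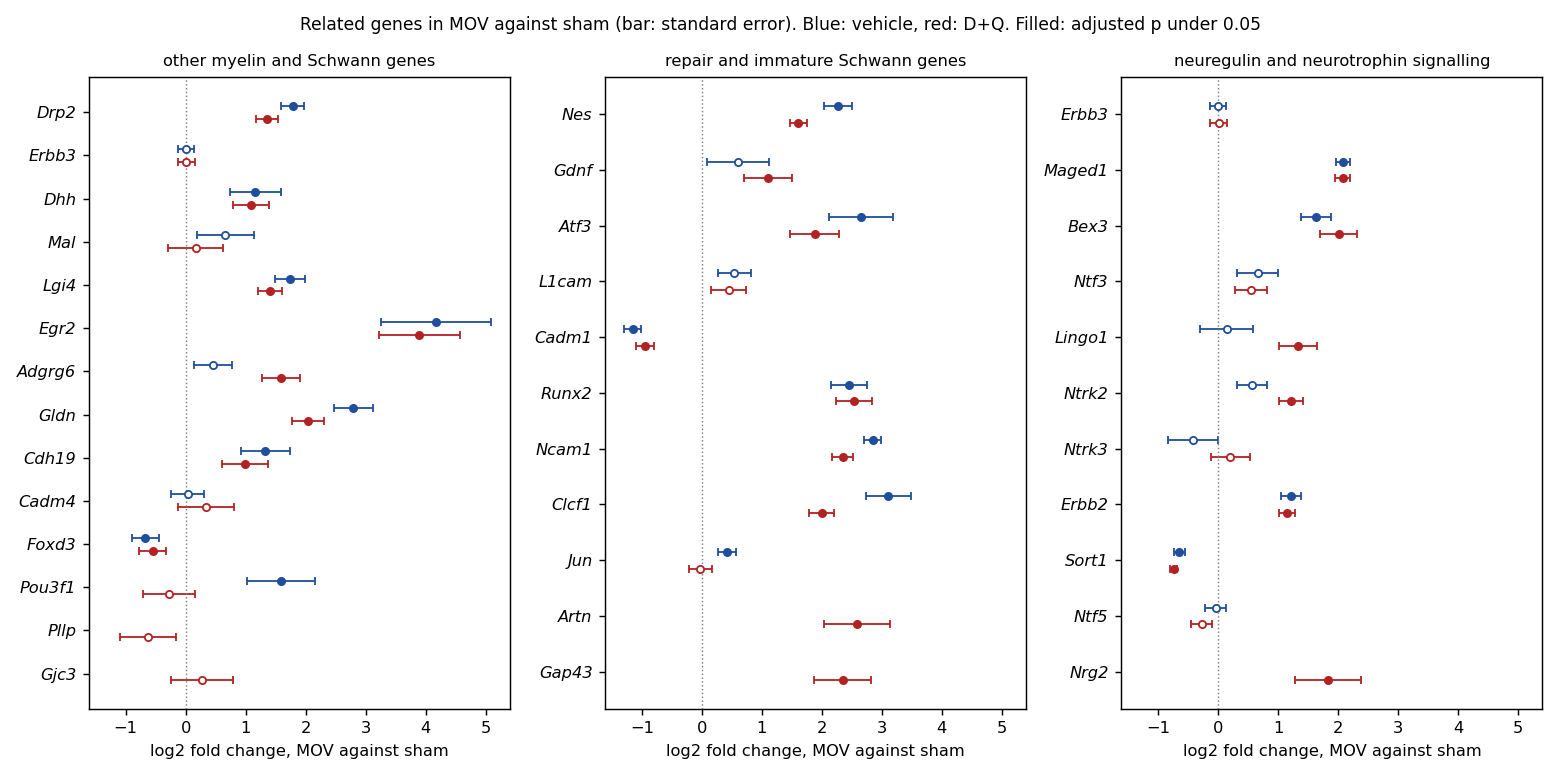
Log2 fold change in MOV against sham mice, with bars of 1 standard error from edgeR, for the tested genes of the lists of other myelin and Schwann genes, repair and immature Schwann genes, and neuregulin and neurotrophin signalling. Blue is vehicle and red D+Q (5 mice against 5 each), and filled points passed an adjusted p of 0.05; Erbb3 is open in both treatments, and Egr2, Gldn, Ncam1 and Maged1 are filled in both.

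Markers of cell types other than Schwann cells differed between sham and MOV muscle, and they are given beside the members. Over all genes tested, 30.7% rose and 29.8% fell with vehicle, and 34.4% rose and 30.9% fell with D+Q. Of 7 fibroblast markers, 7 rose in both treatments, and their summed level went from 485 ± 77.7 CPM in vehicle sham to 7263 ± 1732 CPM in vehicle MOV mice and from 719 ± 198 to 9712 ± 1128 CPM with D+Q (SD, n = 5 each). The most abundant of them was Dcn in both sham groups and the collagen gene Col3a1 in both MOV groups. Of 7 macrophage markers, led by the lysozyme gene Lyz2, 7 rose in both, from 86.9 ± 32.4 to 529.9 ± 192 CPM and from 96.6 ± 31.7 to 632 ± 43.9 CPM. Of 8 endothelial markers, led by the cadherin gene Cdh5 in sham and by the adhesion gene Pecam1 in MOV mice, 7 rose in both, from 165 ± 21.7 to 265 ± 20.4 CPM and from 184 ± 26.8 to 255 ± 30.5 CPM. Muscle fibre markers fell in 4 of 8 genes with vehicle and 5 of 8 with D+Q, to summed levels of 93897 ± 12704 and 86992 ± 9307 CPM, while Myh2, a fast oxidative myosin heavy chain, rose by 0.74 and 0.50 and Myh7, the slow myosin heavy chain, rose with D+Q (3.14) and was not called with vehicle (1.74, adjusted p = 0.144 from edgeR). The part of these cells in the rise of Pmp22, which fibroblasts and endothelium also express, and of the other members was not tested.

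Of the other structures of the nerve, endoneurial fibroblast markers rose in 3 of 4 tested genes with vehicle and 4 of 5 with D+Q, from 17.9 ± 3.13 to 31.1 ± 4.90 CPM and from 21.5 ± 3.04 to 36.5 ± 3.88 CPM in sum (SD, n = 5 each), led by the transporter gene Abca9. The share of all tested genes that rose was 30.7% with vehicle and 34.4% with D+Q. Perineurial markers, led by the glucose transporter gene Slc2a1, were at 19.8 ± 2.48 and 25.0 ± 4.19 CPM with vehicle and 20.6 ± 1.85 and 22.9 ± 3.28 CPM with D+Q; Slc2a1 rose in both treatments, Mpzl2, an adhesion gene, fell with vehicle and missed the count minimum with D+Q, and the keratin gene Krt19 missed it in both comparisons of MOV with sham. Of 8 axon markers 3 have no row in the table used here (Nefl, Snap25 and Chat). The neurofilament genes Nefm and Nefh had at most 4 and 6 counts in any mouse; the cell bodies of motor axons lie outside the muscle. Prph, which encodes the intermediate filament peripherin, and Tubb3, a neuronal tubulin, rose in both treatments (Prph 2.75 and 2.67, Tubb3 1.27 and 1.39 in log2 fold change). Prph had at most 15 counts in vehicle sham and 12 in D+Q sham mice, against up to 49 and 72 in MOV mice. It missed the count minimum between the sham groups and was tested against MOV mostly through the MOV mice. Stmn2, a protein of growing axons and the most abundant of the list, was at 0.44 and -0.19 (adjusted p = 0.113 and 0.484 from edgeR). The part of these markers of the nerve in the members' values was not tested.

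Markers of denervated muscle fibres rose in 6 of 6 genes with vehicle and 5 of 6 with D+Q. For this and the other marker lists here, 30.7% of all tested genes rose and 29.8% fell with vehicle. With D+Q these shares were 34.4% and 30.9%. Chrng, the fetal subunit of the acetylcholine receptor, went from 0.205 ± 0.218 CPM in vehicle sham to 4.91 ± 1.79 CPM in vehicle MOV mice (SD, n = 5 each; log2 fold change 4.45, adjusted p = 1.65e-06 from edgeR) and rose by 3.95 with D+Q. Myog, the muscle factor myogenin, rose by 3.53 and 3.12. These genes also rise in regenerating fibres. The summed level of the 6, led by Gadd45a in both sham groups and by Runx1 in both MOV groups, was 33.7 ± 5.52 and 117 ± 12.3 CPM with vehicle and 37.6 ± 7.88 and 103.1 ± 21.4 CPM with D+Q. Between mice of a group it did not follow the members (r = 0.0988 over 20 mice). Of 5 satellite cell markers, led by the muscle factor gene Myod1, 3 rose in both treatments, from 25.5 ± 3.99 to 37.4 ± 3.51 CPM and from 27.4 ± 2.34 to 38.9 ± 4.55 CPM. Of 6 smooth muscle and pericyte markers, led by the pericyte gene Rgs5, 3 rose in both and the potassium channel gene Kcnj8 fell with D+Q, and of 5 adipocyte markers, led by the adiponectin gene Adipoq, 4 fell with vehicle and 2 with D+Q. Melanocytes, which also express Sox10, had summed markers of 0.578 ± 0.257 and 1.11 ± 0.315 CPM with vehicle and 0.563 ± 0.230 and 1.05 ± 0.241 CPM with D+Q, with the pigment genes Pmel, Mlana and Tyr near 0 and Dct, an enzyme of pigment synthesis, not called. The part of these markers in the members' values was not tested.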

How the data were processed

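Total RNA of homogenized plantaris muscle had been sequenced from 20 mice, 5 in each of 4 groups taken from the labels; read counts between mice of a group varied at least 7.13 times as much as counting alone would give, so that no library repeats another of its group. The authors aligned reads with STAR 2.7.8a to GRCm39 and deposited estimated counts per gene from Partek's expectation-maximization step, 22660 rows with sums of at least 10. Of the values 29.8% were not whole, and all were rounded to whole counts. Whether counting used the strand is not given. The design text and the labels differ on the day of the second gavage of sham mice (day 14 or day 10), and day 10 is used.

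Counts were tested with edgeR 4.0.16 in R 4.3.3 (robust quasi-likelihood, TMM factors, at least 10 counts in at least 5 mice of a fit, Benjamini-Hochberg adjusted p under 0.05) in 5 comparisons: MOV against sham in each treatment, D+Q against vehicle in each surgery, and their interaction. Total counts of 17887532 to 26234518 leave genes of few counts, such as Mag and Sox10, with wide errors. Alternatives were DESeq2 1.42.0, RLE factors, total counts only, no count minimum, a count minimum of 50, limma-voom (limma 3.58.1) with quality weights, 1 fit of all 20 mice, each mouse left out, the replicate number as a block, and, chosen after seeing the data, vehicle MOV mice 2 and 4 left out, and these 2 or mouse 4 alone left out with no count minimum.

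The members, the gene lists and the marker lists were chosen with earlier results of these data known. Genes named from each list are the members, Egr2, Erbb3, Jun, Sox2, Gap43, Nrg1 and Bdnf, and up to 4 called genes with the largest rise and 4 with the largest fall in each comparison. Of a marker list, the most abundant gene and genes at or near 0 are named; other markers and overlapping genes were named after their values were seen. Likeness to the members used Pearson's r of log2 CPM deviations from group means. Of the genes chosen for the lists, 3 were not analysed here, and what is given for a list does not cover them. Protein measurements, single-cell data and the transcript forms of Mbp were not analysed here.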

Additional observations from a re-analysis of the deposited data

Results flagged for a closer look

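In 32 sets of 5 mice (8 genes in 4 groups), a mouse was singled out when its gap to the nearest other mouse took up an unusually large share of the range of its group; chance singles out about 1 in 20 groups. Mbp in vehicle sham mouse 1, at 13.84 CPM, stood far above the other 4 vehicle sham mice. Sox10 in D+Q MOV mouse 3, at 3.161 CPM, stood far above the other 4 D+Q MOV mice. The causes were not tested.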

How the results depend on the processing

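Over the alternatives, 611 of 685 fold changes of the 8 genes kept their direction and their side of the threshold, 24 no longer passed, 9 newly passed and 41 changed direction. The cause was not tested, except where fewer genes met a count minimum.

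Members called in vehicle MOV against vehicle sham mice were 6 of 7 with total counts only, against 9128 of all 14601 genes. With a count minimum of 50, under which fewer members could be tested, 1 of 4 was called, against 7343 of 11505 genes. Without vehicle MOV mice 2 and 4, an alternative chosen after seeing the data, 1 of 5 was called, against 7649 of 13820 genes. With 1 mouse left out 2 to 4 members were called, and 7929 to 8504 genes in all. In D+Q MOV against D+Q sham mice 2 of 4 members were called with a count minimum of 50, against 8219 of 11828 genes. With limma-voom 3 of 7 were called, against 9742 of 14913 genes, and with 1 mouse left out 3 to 5, with 8850 to 9450 genes in all. Calls over all genes in D+Q against vehicle MOV mice were 11 with DESeq2, 7 without vehicle MOV mice 2 and 4, and 0 to 2 with 1 mouse left out. In D+Q against vehicle sham mice they were 133 with DESeq2, 49 with total counts only, 67 with no count minimum, 19 with all 20 mice in one fit and 2 to 74 with 1 mouse left out. In the interaction they were 2 to 3 with 1 mouse left out.

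With the replicate block, calls over all genes were 2 in D+Q against vehicle MOV mice, 19 in D+Q against vehicle sham mice and 1 in the interaction, where Sox10 was at -0.012. Mice of the same number were no more alike than others in these values (r from -0.32 to 0.32). Whether the numbers pair mice in another way was not tested.

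Log2 fold changes that turned were these. Mbp in MOV against sham mice was 0.29 with vehicle and 0.018 with D+Q under total counts only, and -0.33 to 0.10 with vehicle when 1 mouse was left out. Prx in D+Q mice was -0.013 with limma-voom and -0.024 to 0.19 with 1 mouse left out. In D+Q against vehicle MOV mice, limma-voom gave -0.12 for Sox10 and -0.060 for Ngfr, and leaving out 1 mouse gave -0.090 to 0.27 for Mbp, -0.021 to 0.29 for S100b, -0.53 to 0.55 for Sox10 and -0.42 to 0.57 for Ngfr. In D+Q against vehicle sham mice it gave -0.080 to 0.079 for Cnp and -0.28 to 0.14 for S100b. In the interaction, Pmp22 was 0.0010 with RLE factors, Mag 0.042 and Sox10 -0.61 with limma-voom, and leaving out 1 mouse gave -0.13 to 0.16 for Pmp22, -0.024 to 0.39 for S100b, -0.65 to 0.51 for Sox10 and -0.99 to 0.015 for Ngfr.

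Where a gene missed the count minimum an alternative gave no value, as for Mag between groups, for Sox10 and Ngfr in sham mice, and for Sox10 in vehicle mice in 5 of the 10 fits with 1 mouse left out. Per kilobase of the longest transcript in place of the union of exons, the levels of Pmp22, Cnp, Mbp and Mag in vehicle sham mice moved by more than 1 SD. Depth limits Mag, Sox10, Ngfr and S100b most.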
